A study of Mus musculus with 13 samples.

Results

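The genes of the heat shock and unfolded protein response were followed as a set of 35 named genes among the 36287 genes of a hippocampal RNA-seq table. They comprise the cytosolic, mitochondrial and endoplasmic reticulum (ER) chaperones and the regulators of the unfolded protein response. The set was taken by gene name, and 35 of 35 members passed the filter on low counts that left 22065 genes to test. The poly(A)-selected RNA was hippocampal and all mice were 5xFAD, a transgenic line in which the neuronal Thy1 promoter drives the transgenes and amyloid beta accumulates. One group received ACLP-NT, an agent of which only this code name is known (n = 5, libraries 17, 27, 49, 53 and 55). Another received Aducanumab, an antibody to aggregated amyloid beta (n = 4, libraries 24, 50, 56 and 58). The controls, transgenic as well, received saline (n = 4, libraries 18, 19, 32 and 38). There was no wild-type group, and the sources used here do not give age, sex, dose or duration. The labels number the libraries without saying outright that each is a separate animal, so p-values measure only the spread between these libraries.

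Chaperones bind unfolded proteins and help them fold, and cells raise their transcripts when misfolded protein accumulates. In the cytosol the transcription factor HSF1 drives the Hsp70, Hsp90 and Hsp110 families through heat shock elements. In the ER, the sensors IRE1, PERK and ATF6 start the unfolded protein response, in which XBP1, ATF4 and cleaved ATF6 induce ER chaperones, disulfide isomerases and degradation factors. Many of the chaperones are present in healthy neurons and glia, and secretory cells hold the ER members at high levels.

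Promoters are shown because several, though not all, of the members that varied together between libraries carry an ER stress element there. The heat shock element was found at other members. RefSeq windows on the GRCm38.p6 build, reaching from 250 bases before to 50 bases after a transcription start, were matched by symbol for 28 of the 35 members. Atf6, Hsp90aa1, Hsp90ab1, Hspa8, Hspa9, Hyou1 and Manf are named without a window. Each window was searched on both strands for the ER stress element (CCAAT, any 9 bases, then CCACG), the heat shock element (GAA, TTC and GAA with any 2 bases between them) and the C/EBP-ATF response element TGATGNAAT, where N is any base. Capitals below mark the fixed letters of a match, reverse-complemented where the match lies on the opposite strand, and a match is a description of these letters alone. The 250 bases before the start were as follows.
Hspa5 promoter, chr2:34771840-34772089, plus strand: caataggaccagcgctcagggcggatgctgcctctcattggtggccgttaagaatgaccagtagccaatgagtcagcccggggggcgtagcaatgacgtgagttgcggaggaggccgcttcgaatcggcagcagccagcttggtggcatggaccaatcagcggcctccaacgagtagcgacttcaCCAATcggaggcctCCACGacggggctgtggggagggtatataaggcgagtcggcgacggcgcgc
Hsp90b1 promoter, chr10:86705445-86705694, minus strand: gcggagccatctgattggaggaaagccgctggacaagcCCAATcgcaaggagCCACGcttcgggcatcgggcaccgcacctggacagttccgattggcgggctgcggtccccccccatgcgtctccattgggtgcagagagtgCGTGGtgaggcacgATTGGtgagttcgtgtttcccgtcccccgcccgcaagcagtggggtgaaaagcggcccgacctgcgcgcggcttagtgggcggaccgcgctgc
Calr promoter, chr8:84846932-84847181, minus strand: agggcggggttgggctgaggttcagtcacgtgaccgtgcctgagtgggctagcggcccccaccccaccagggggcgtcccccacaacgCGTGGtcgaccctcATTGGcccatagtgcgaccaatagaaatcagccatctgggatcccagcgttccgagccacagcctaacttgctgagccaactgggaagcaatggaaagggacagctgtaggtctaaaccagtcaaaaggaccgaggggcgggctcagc
Hspe1 promoter, chr1:55087898-55088147, plus strand: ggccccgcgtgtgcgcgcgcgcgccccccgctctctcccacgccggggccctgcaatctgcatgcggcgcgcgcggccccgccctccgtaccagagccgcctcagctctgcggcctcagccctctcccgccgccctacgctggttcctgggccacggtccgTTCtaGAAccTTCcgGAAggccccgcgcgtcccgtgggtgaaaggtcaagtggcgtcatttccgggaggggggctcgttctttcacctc

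The ER stress element was present in windows of 7 of the 28 members (Calr, Canx, Creld2, Dnajc3, Hsp90b1, Hspa5 and Pdia6), against 0.137% of 27025 genes with a window. All 7 members encode ER proteins. The ER members Pdia3, Pdia4, Dnajb11, Sdf2l1, Herpud1 and Dnajb9 had windows without a match. Of these, Pdia4 and Pdia3 were among the members that followed Hspa5 most closely between libraries, as given below. Read in its own direction, each site has the form below, and Hsp90b1 has 2.
Hspa5, chr2:34772025-34772043, bases -65 to -47 from the start: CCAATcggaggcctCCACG
Calr, chr8:84847075-84847093, opposite strand: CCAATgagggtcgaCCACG
Hsp90b1, chr10:86705638-86705656: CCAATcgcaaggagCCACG
Hsp90b1, chr10:86705533-86705551, opposite strand: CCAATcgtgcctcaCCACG
Canx, chr11:50325800-50325818: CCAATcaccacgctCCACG
Pdia6, chr12:17266491-17266509: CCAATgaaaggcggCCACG
Dnajc3, chr14:118937827-118937845: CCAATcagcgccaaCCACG
Creld2, chr15:88819520-88819538, opposite strand: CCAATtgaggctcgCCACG

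The heat shock element was present in windows of 3 members, Hspd1, Hspe1 and Hsph1, against 0.662% of genes with a window. Hspa1a, Hspa1b, Dnajb1, Bag3 and Hspb1 had windows without a match to these exact letters. Hspd1 and Hspe1 are transcribed away from each other on chromosome 1, and both of their matches are the same 2 overlapping sites, seen from either side. In the direction of Hspe1 one of them reads as below, and the Hsph1 match lies after its start.
Hspe1 and Hspd1, chr1:55088064-55088076: GAAccTTCcgGAA
Hsph1, chr5:149636288-149636300, opposite strand: GAActTTCcaGAA
The C/EBP-ATF element was in 0 of the 28 members with a window, against 1.08% of genes, and that says only that these letters are not in these windows.

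The libraries held 53642019 to 64874729 counts in ACLP-NT, 56858092 to 64431803 in Aducanumab and 57513570 to 69734713 in saline. All 8 marker genes of hippocampal subfields were detected, and their summed level in CPM, counts scaled to library size, was 733 to 873 CPM in ACLP-NT, 693 to 834 CPM in Aducanumab and 580 to 799 CPM in saline. Their log2 fold change was above 0 for 8 of 8 in ACLP-NT against saline (median 0.27; 49.4% of all genes were above 0). In Aducanumab against saline it was above 0 for 7 of 8 (median 0.16, with 51.3% of all genes). By the edgeR test used below 0 of them passed, and their part in the chaperone values was not tested. Transcripts of choroid plexus, a secretory epithelium of the brain ventricles, were present to very different degrees. Its 10 markers summed to 86.8 to 5066 CPM in ACLP-NT, 84.8 to 5184 CPM in Aducanumab and 50.8 to 5067 CPM in saline, with medians of 2244, 2665 and 343 CPM; 0 of the 10 were at 0 throughout a group. In bulk tissue, fewer cells of a type and less RNA per cell cannot be told apart.

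Per length, the most abundant members were the cytosolic chaperones Hsp90ab1, Hspa8 and Hsp90aa1. The other cytosolic members ranked below several ER members, with Hspa1a at 6.38 FPKM and Hspa1b at 7.36 FPKM. On the deposited FPKM scale Hsp90ab1 averaged 386 FPKM over the 13 libraries, Hspa8 334 FPKM and Hsp90aa1 223 FPKM. The highest ER members were Calr at 103 FPKM and Hsp90b1 at 83.7 FPKM. At the low end stood Bag3 at 3.63 FPKM and Trib3 at 0.250 FPKM, whose smallest count was 15. Of the ER stress regulators, Atf4 averaged 46.7 FPKM and Xbp1 21.8 FPKM.

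**Figure D1:**
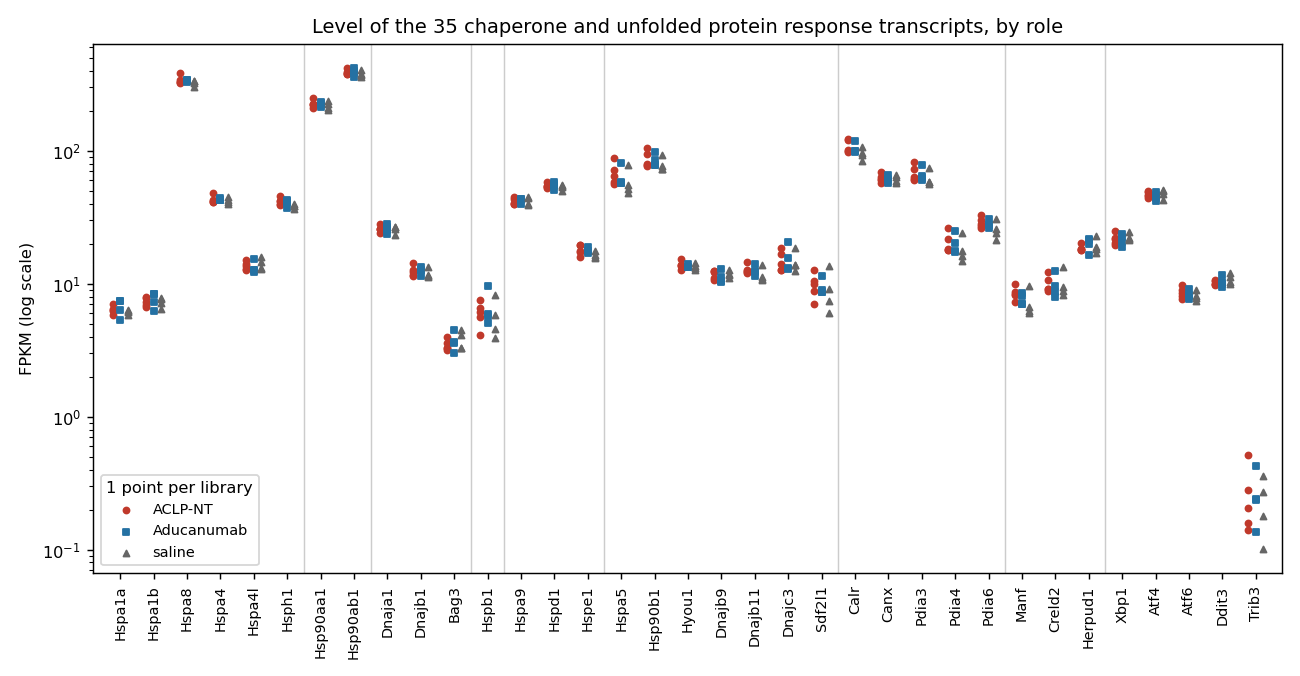
Level of each of the 35 members in FPKM on a log axis, 1 point per library, with ACLP-NT, Aducanumab and saline side by side and vertical lines between roles. Means run from 0.250 FPKM for Trib3 to 386 FPKM for Hsp90ab1, and the spread between libraries is small beside the differences between genes.

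No member passed in any comparison. Against saline, 0 of 35 members passed in ACLP-NT by the edgeR quasi-likelihood test with Benjamini-Hochberg adjustment at 0.05 (0% of the 22065 genes tested passed), and the smallest adjusted p of a member was 0.788. Aducanumab against saline gave 0 of 35 (0% of genes), with a smallest adjusted p of 0.9997, and ACLP-NT against Aducanumab gave 0 of 35 (0% of genes), with a smallest adjusted p of 1. DESeq2 and limma also called 0 members in each. At an unadjusted p below 0.05 in edgeR there were 2 members in ACLP-NT against saline, Calr and Hsph1, both higher. Of all genes 5.88% were below it in either direction, and 542 of 22065 were higher. There were 0 members in Aducanumab against saline (4.68% of genes) and 0 in ACLP-NT against Aducanumab (3.24% of genes). In DESeq2 these counts were 4 (6.44% of genes), 0 (5.01%) and 0 (3.43%), and in limma on log2(FPKM + 1) they were 2 (6.58%), 0 (5.23%) and 0 (3.83%).

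Groups overlapped for every member in all 3 comparisons. The share of all genes whose ACLP-NT libraries lay wholly above saline was 0.925%, and 1.33% lay wholly below. For Aducanumab against saline the shares were 1.16% and 1.41%, and for ACLP-NT against Aducanumab 0.693% and 0.644%.

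Small differences pointed up more often than down. Against saline, the log2 fold change was above 0 for 28 of 35 members in ACLP-NT (49.4% of all genes) and for 27 of 35 in Aducanumab (51.3% of all genes). These 2 comparisons share the saline libraries, so the second count is not a separate observation. Many members also varied together between libraries, as given below, so the 35 members are not separate observations either. The median member was at 0.048 in ACLP-NT against saline, where the median of all genes was -0.0015, and at 0.062 in Aducanumab against saline, where it was 0.0036. Both are smaller than the SD within groups of the median member per library, 0.075 on the log2 scale. That SD is a spread of single libraries and not the error of a difference between groups. With 1 library left out the 2 medians were 0.018 to 0.077 and 0.020 to 0.092, and with the choroid plexus covariate described below both were 0.029. Between the treatments, 23 of 35 members were above 0 in ACLP-NT against Aducanumab (47.6% of all genes), with a median of 0.022. Without ACLP-NT 49 that count was 13 and the median was -0.021.

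The intervals limit how large a difference could be. In ACLP-NT against saline, 30 of 35 members had a 95% interval inside a log2 fold change of 0.5 either way, which is 1.41-fold. The 5 wider ones were Hspb1, Hspa5, Sdf2l1, Manf and Trib3. In Aducanumab against saline 32 of 35 were inside, and in ACLP-NT against Aducanumab 33 of 35.

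**Figure D2:**
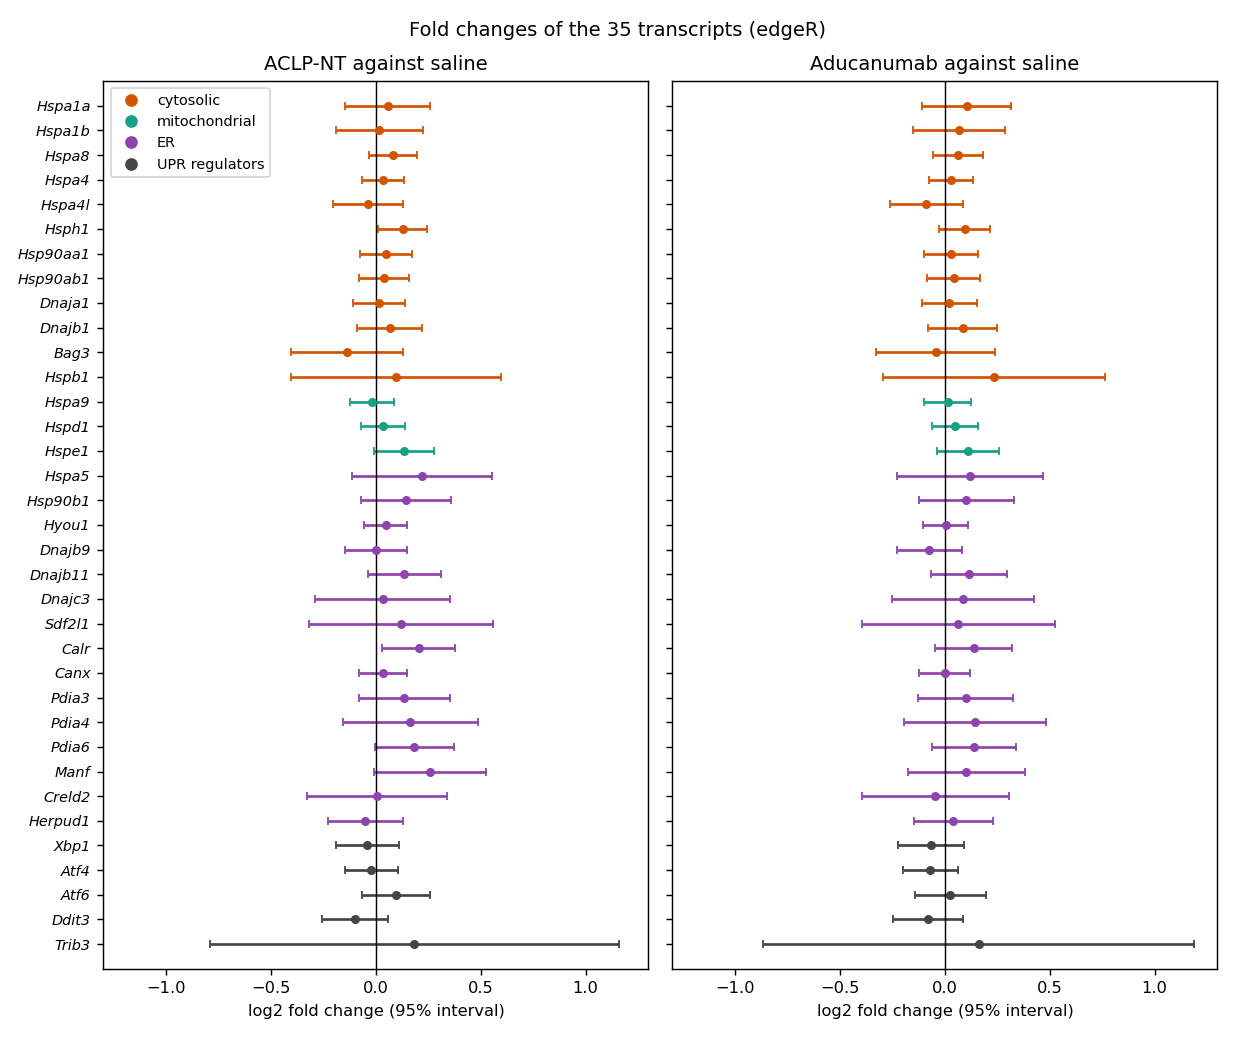
Log2 fold change of each member with its 95% interval, in ACLP-NT against saline (left) and Aducanumab against saline (right), coloured by cell compartment. The points lie between -0.14 and 0.26 on the left and between -0.089 and 0.23 on the right, and Trib3 has the widest interval, -0.79 to 1.16 on the left.

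Within each group below, values follow the library order 17, 27, 49, 53 and 55 for ACLP-NT, 24, 50, 56 and 58 for Aducanumab and 18, 19, 32 and 38 for saline. All are CPM after TMM scaling, computed from the deposited counts, and for every gene named the groups overlap.

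Among the cytosolic Hsp70 genes, Hspa8, the constitutive Hsp70 of neurons, had 1525, 1522, 1752, 1535 and 1571 CPM in ACLP-NT, 1595, 1578, 1561 and 1503 CPM in Aducanumab, and 1549, 1395, 1496 and 1534 CPM in saline. ACLP-NT 49 was the highest library and saline 19 the lowest. The log2 fold change was 0.082 (SE 0.0530) in ACLP-NT against saline and 0.062 (SE 0.0558) in Aducanumab against saline. Hspa1a, a heat-inducible Hsp70, had 20.3, 20.3, 22.3, 20.6 and 18.6 CPM in ACLP-NT, 23.8, 16.9, 23.9 and 19.8 CPM in Aducanumab, and 19.9, 18.8, 19.9 and 20.1 CPM in saline. Its neighbour Hspa1b, which encodes a nearly identical protein, had 23.8, 21.1, 23.5, 21.8 and 20.1 CPM in ACLP-NT, 25.5, 18.7, 25.6 and 21.6 CPM in Aducanumab, and 23.6, 19.4, 23.2 and 21.2 CPM in saline. For both genes Aducanumab 56 and 24 were the 2 highest libraries and Aducanumab 50 was the lowest, so that one treatment group spanned the whole range. Hspa1a had log2 fold changes of 0.056 in ACLP-NT and 0.10 in Aducanumab, each against saline, and Hspa1b 0.015 and 0.066. From its lowest to its highest library Hspa1a differed 1.41-fold.

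Hsph1, the Hsp110 nucleotide exchange factor that recycles Hsp70 (ENSMUSG00000029657, chromosome 5, 149537752 to 149559841 in the table's coordinates), had 305, 312, 354, 329 and 329 CPM in ACLP-NT, 325, 325, 338 and 285 CPM in Aducanumab, and 301, 284, 310.5 and 298 CPM in saline. The ACLP-NT libraries 27, 49, 53 and 55 stood above all 4 saline libraries, and 17 lay among them. Means were 326 ± 18.8 CPM (SD, n = 5) in ACLP-NT, 318 ± 22.8 CPM (SD, n = 4) in Aducanumab and 298 ± 11.04 CPM (SD, n = 4) in saline. The log2 fold change was 0.13 (SE 0.0548) in ACLP-NT against saline, with an edgeR unadjusted p of 0.0360 and an adjusted p of 0.799. In Aducanumab against saline it was 0.094 (SE 0.0576), with an interval of -0.030 to 0.22. The other 2 Hsp110 genes, Hspa4 and Hspa4l, had log2 fold changes of 0.036 and -0.037 in ACLP-NT and 0.031 and -0.089 in Aducanumab, each against saline.

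Hsp90aa1, the stress-responsive cytosolic Hsp90, had 898, 939, 1048, 948 and 960.3 CPM in ACLP-NT, 944, 975, 980.1 and 885 CPM in Aducanumab, and 1001, 859.7, 901 and 947 CPM in saline. As for Hspa8, ACLP-NT 49 was highest and saline 19 lowest, 1.22-fold apart. Hsp90ab1, the constitutive form, had 1220.4, 1271, 1336, 1222 and 1238 CPM in ACLP-NT, 1302, 1237, 1359.8 and 1148 CPM in Aducanumab, and 1308, 1167, 1233 and 1192 CPM in saline. Its extremes were both in the Aducanumab group, 56 at the top and 58 at the bottom. Log2 fold changes were 0.048 for Hsp90aa1 and 0.038 for Hsp90ab1 in ACLP-NT against saline, with intervals of -0.074 to 0.17 and -0.082 to 0.16, and 0.029 and 0.043 in Aducanumab against saline.

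Dnajb1, the J-protein that delivers clients to Hsp70, had 40.0, 44.0, 48.8, 39.5 and 42.1 CPM in ACLP-NT, 44.4, 46.0, 44.4 and 39.1 CPM in Aducanumab, and 39.4, 40.3, 38.8 and 45.5 CPM in saline. ACLP-NT 49 was highest and saline 32 lowest, and the log2 fold changes were 0.065 in ACLP-NT and 0.084 in Aducanumab, each against saline. The J-protein Dnaja1 lay between 261 CPM, in Aducanumab 50, and 217 CPM, in saline 19. Bag3, a cochaperone that passes Hsp70 clients to autophagy, lay between 8.41 CPM, in Aducanumab 24, and 12.3 CPM, in saline 38. Hspb1, the small heat shock protein Hsp27, had 6.82, 6.27, 7.24, 8.42 and 4.57 CPM in ACLP-NT, 6.45, 6.59, 5.74 and 10.6 CPM in Aducanumab, and 4.33, 6.43, 5.14 and 8.998 CPM in saline. It had the widest spread of the cytosolic members, 2.44-fold, with Aducanumab 58, saline 38, ACLP-NT 53 and ACLP-NT 49 as the 4 highest libraries. Its log2 fold changes were 0.097 (SE 0.234) in ACLP-NT against saline and 0.23 (SE 0.246) in Aducanumab against saline, with intervals of -0.41 to 0.60 and -0.29 to 0.76.

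Several cytosolic members share sequence with other genes. The share of 100-base windows of the transcript that also occur in another gene of the GENCODE M21 annotation was 63.4% for Hspa8, 56.5% for Hspa1a, 49.9% for Hspa1b, 47.5% for Hsp90aa1 and 42.7% for Hspb1. For 24 of the 35 members it was 0. The sources used here do not say how such reads were counted, so the levels of Hspa1a and Hspa1b are uncertain as separate values.

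In mitochondria, Hspd1 (Hsp60) and its lid Hspe1 (Hsp10) form the folding chamber of the matrix. Hspd1 had 154, 152, 164, 149 and 154 CPM in ACLP-NT, 157, 160.2, 167 and 141 CPM in Aducanumab, and 157, 142, 152 and 154 CPM in saline. Its extremes were Aducanumab 56 at the top and Aducanumab 58 at the bottom, as for Hsp90ab1. Hspe1 had 28.0, 25.6, 30.5, 27.6 and 31.4 CPM in ACLP-NT, 28.3, 29.9, 28.1 and 26.5 CPM in Aducanumab, and 24.97, 25.2, 26.4 and 27.9 CPM in saline. For Hspe1 the highest 2 libraries were ACLP-NT 55 and 49, and saline 18 and 19 were the lowest. Its log2 fold change was 0.13 (SE 0.0663) in ACLP-NT against saline (unadjusted p 0.0648 by edgeR, adjusted 0.848) and 0.11 (SE 0.0698) in Aducanumab against saline. Hspd1 was at 0.035 and 0.049 in these comparisons, and Hspa9, the mitochondrial Hsp70, at -0.017 and 0.013. Hspd1 and Hspe1 overlap by 112 bases on opposite strands in the table's coordinates, and the sources used here do not say whether reads were counted by strand.

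In the ER, Hspa5 (BiP), the Hsp70 that also holds the stress sensors inactive (ENSMUSG00000026864, chromosome 2, 34661982 to 34667559 in the table's coordinates), had 257, 269, 396, 328 and 294 CPM in ACLP-NT, 267, 261, 262 and 362 CPM in Aducanumab, and 218, 252, 237 and 353 CPM in saline. The 4 libraries above 300 CPM were ACLP-NT 49, Aducanumab 58, saline 38 and ACLP-NT 53, so each group held at least 1. Means were 309 ± 55.8 CPM (SD, n = 5) in ACLP-NT, 288 ± 49.6 CPM (SD, n = 4) in Aducanumab and 265 ± 60.1 CPM (SD, n = 4) in saline. The log2 fold change was 0.22 (SE 0.155) in ACLP-NT against saline, with an interval of -0.11 to 0.55, and 0.12 (SE 0.163) in Aducanumab against saline, with an interval of -0.23 to 0.47. Hsp90b1 (GRP94), the Hsp90 of the ER, had 341, 337, 451, 411 and 349 CPM in ACLP-NT, 339.8, 368, 343 and 418 CPM in Aducanumab, and 316, 333, 316 and 402 CPM in saline. The same 4 libraries were highest, and its log2 fold changes were 0.14 (SE 0.100) in ACLP-NT and 0.10 (SE 0.106) in Aducanumab, each against saline. These sizes depended on single libraries. In ACLP-NT against saline Hspa5 was at 0.12 without ACLP-NT 49, 0.14 without saline 18 and 0.39 without saline 38, and Hsp90b1 was at 0.076 without ACLP-NT 49 and 0.23 without saline 38. With the choroid plexus covariate they were at 0.11 and 0.070, and Hspa5 in Aducanumab against saline was at 0.031.

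The cofactors of BiP differed in how far they varied. Dnajb11, the J-protein that brings BiP to unfolded chains, had 42.6, 44.0, 49.8, 44.1 and 42.1 CPM in ACLP-NT, 43.7, 40.0, 43.0 and 48.6 CPM in Aducanumab, and 38.9, 37.1, 38.1 and 47.9 CPM in saline. Its 4 highest libraries were also ACLP-NT 49, Aducanumab 58, saline 38 and ACLP-NT 53, and its log2 fold changes against saline were 0.14 (SE 0.0805) in ACLP-NT and 0.11 (SE 0.0847) in Aducanumab. Sdf2l1, a partner of the ER J-proteins that is strongly induced by ER stress, had 10.50, 8.55, 14.8, 11.9 and 12.7 CPM in ACLP-NT, 10.8, 10.3, 10.52 and 13.4 CPM in Aducanumab, and 7.20, 8.93, 10.96 and 15.9 CPM in saline. Saline 38 was highest and saline 18 lowest, 2.21-fold apart within 1 group, and the log2 fold changes against saline were 0.12 (SE 0.204) in ACLP-NT and 0.063 (SE 0.215) in Aducanumab. Hyou1, the exchange factor of BiP, had 99.9, 107, 118, 107 and 108 CPM in ACLP-NT, 105, 104, 104 and 107 CPM in Aducanumab, and 106, 102, 99.1 and 111 CPM in saline. Its whole spread was 1.19-fold. Dnajb9, the J-protein that represses the sensor IRE1, had 34.0, 34.5, 33.5, 29.4 and 30.5 CPM in ACLP-NT, 28.5, 31.0, 29.0 and 34.6 CPM in Aducanumab, and 32.5, 31.8, 30.8 and 34.5 CPM in saline. ACLP-NT 17 and 27 were among its highest 4 libraries although they were not for Hspa5. In ACLP-NT against Aducanumab, log2 fold changes were 0.042 for Hyou1 and 0.074 for Dnajb9, with intervals of -0.059 to 0.14 and -0.074 to 0.22. Across the 7 ER Hsp70, Hsp90 and cofactor genes, 7 were above 0 in ACLP-NT against saline, with a median of 0.12, and 0 passed. Dnajb9 was only just above, at 0.00076, and below 0 without a filter, at a mean FPKM of at least 5, with RLE scaling, in DESeq2, in limma and with the choroid plexus covariate. With that covariate Dnajb11 was at 0.068 and Sdf2l1 at 0.028, and without saline 38 they were at 0.23 and 0.37.

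Calr, which encodes calreticulin, the soluble lectin that retains glycoproteins until they fold and buffers ER calcium (ENSMUSG00000003814, chromosome 8, 85568479 to 85573563 in the table's coordinates), had 306, 309.9, 375, 376 and 318 CPM in ACLP-NT, 304, 309, 314 and 359 CPM in Aducanumab, and 260.0, 297, 288 and 325 CPM in saline. ACLP-NT 53 and 49 and Aducanumab 58 were highest, and saline 18 was lowest. Means were 337 ± 35.3 CPM (SD, n = 5) in ACLP-NT, 322 ± 25.2 CPM (SD, n = 4) in Aducanumab and 292 ± 26.6 CPM (SD, n = 4) in saline. It had the smallest p of all members in ACLP-NT against saline, with a log2 fold change of 0.21 (SE 0.0810), an edgeR unadjusted p of 0.0239 and an adjusted p of 0.788. In Aducanumab against saline the log2 fold change was 0.14 (SE 0.0852). Pdia6, a disulfide isomerase that binds BiP, had 106, 110.2, 131, 122 and 113 CPM in ACLP-NT, 113, 110.3, 106 and 123 CPM in Aducanumab, and 86.6, 103, 97.3 and 123 CPM in saline. Saline 38 stood with the top libraries of the other groups, and the other 3 saline libraries were the lowest of all. Its log2 fold changes were 0.18 (SE 0.0882) in ACLP-NT and 0.14 (SE 0.0927) in Aducanumab, each against saline. The remaining lectin and isomerases were the membrane lectin Canx, at 0.033 and -0.0013, Pdia3, which works with both lectins, at 0.14 and 0.100, and Pdia4, at 0.16 and 0.14, in ACLP-NT and in Aducanumab against saline. All 5 genes of this role were above 0 in ACLP-NT against saline (median 0.16), and 0 passed.

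Manf, a secreted factor induced by ER stress that protects neurons, had 31.3, 27.9, 37.6, 33.0 and 32.1 CPM in ACLP-NT, 26.9, 26.7, 30.9 and 31.7 CPM in Aducanumab, and 22.9, 25.4, 23.9 and 36.1 CPM in saline. Saline 18, 19 and 32 were the lowest 3 libraries and saline 38 was the second highest. The log2 fold change of Manf was the largest of any member in ACLP-NT against saline at 0.26 (SE 0.125) (unadjusted p 0.0569 by edgeR, adjusted 0.839), and also in ACLP-NT against Aducanumab at 0.16 (SE 0.124). In ACLP-NT against saline it was at 0.43 without saline 38 and at 0.17 with the choroid plexus covariate, and in ACLP-NT against Aducanumab at 0.10 without ACLP-NT 49. Manf lies over Rbm15b on the same strand and Dcaf1 on the other in the table's coordinates, and their mean counts were 3269 and 2078 against 1837 for Manf. Herpud1, an ER membrane protein of the degradation machinery, had 44.9, 45.5, 50.6, 45.7 and 46.1 CPM in ACLP-NT, 50.4, 53.0, 41.9 and 53.3 CPM in Aducanumab, and 45.6, 47.3, 43.4 and 56.7 CPM in saline. Saline 38 was highest, and the log2 fold change was -0.091 (SE 0.0834) in ACLP-NT against Aducanumab. Creld2, an ER stress-induced secreted protein, lay between 11.8 CPM, in Aducanumab 56, and 19.6 CPM, in saline 38.

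Of the regulators, Xbp1, whose mRNA is spliced by IRE1 to give the active factor, had 75.7, 71.9, 86.0, 68.5 and 77.7 CPM in ACLP-NT, 72.9, 77.7, 67.2 and 81.1 CPM in Aducanumab, and 75.7, 77.8, 74.5 and 84.5 CPM in saline. ACLP-NT 49 was highest, then saline 38, and counts per gene do not separate the spliced form. Atf4, translated when PERK or a related kinase is active, had 119, 114, 122, 116 and 127 CPM in ACLP-NT, 119, 124, 113 and 105 CPM in Aducanumab, and 129, 109, 127 and 119.5 CPM in saline. Saline 18 and 32 were its highest 2 libraries and Aducanumab 58, among the top libraries for BiP, was its lowest. Log2 fold changes against saline were -0.041 in ACLP-NT and -0.064 in Aducanumab for Xbp1, and -0.022 and -0.070 for Atf4. Atf6, the membrane-bound factor released by cleavage, had 85.5, 77.7, 79.8, 97.4 and 89.2 CPM in ACLP-NT, 80.7, 75.6, 91.3 and 80.3 CPM in Aducanumab, and 80.1, 74.3, 90.04 and 77.4 CPM in saline. ACLP-NT 53 was highest and saline 19 lowest, with log2 fold changes of 0.094 and 0.026 in ACLP-NT and in Aducanumab against saline.

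Ddit3 (CHOP), the factor of prolonged ER stress, had 18.4, 18.1, 18.2, 19.3 and 19.9 CPM in ACLP-NT, 18.6, 21.3, 17.6 and 18.7 CPM in Aducanumab, and 19.2, 18.5, 22.3 and 20.5 CPM in saline. Saline 32 was highest, and the log2 fold change was -0.10 (SE 0.0736) in ACLP-NT against saline and -0.082 (SE 0.0777) in Aducanumab against saline. Ddit3 overlaps Mars1 on the opposite strand, with mean counts of 1188 for Ddit3 and 3875 for Mars1. Trib3, a pseudokinase induced by ATF4 and CHOP, had 0.339, 1.21, 0.643, 0.486 and 0.370 CPM in ACLP-NT, 0.314, 0.544, 0.564 and 0.981 CPM in Aducanumab, and 0.262, 0.419, 0.837 and 0.623 CPM in saline. ACLP-NT 27 was highest and saline 18 lowest, 4.63-fold apart, with a smallest count of 15. The interval in ACLP-NT against saline was -0.79 to 1.16. Over the 5 regulators the median log2 fold change was -0.022 in ACLP-NT and -0.064 in Aducanumab, each against saline, with 2 of 5 above 0 in both.

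**Figure D3:**
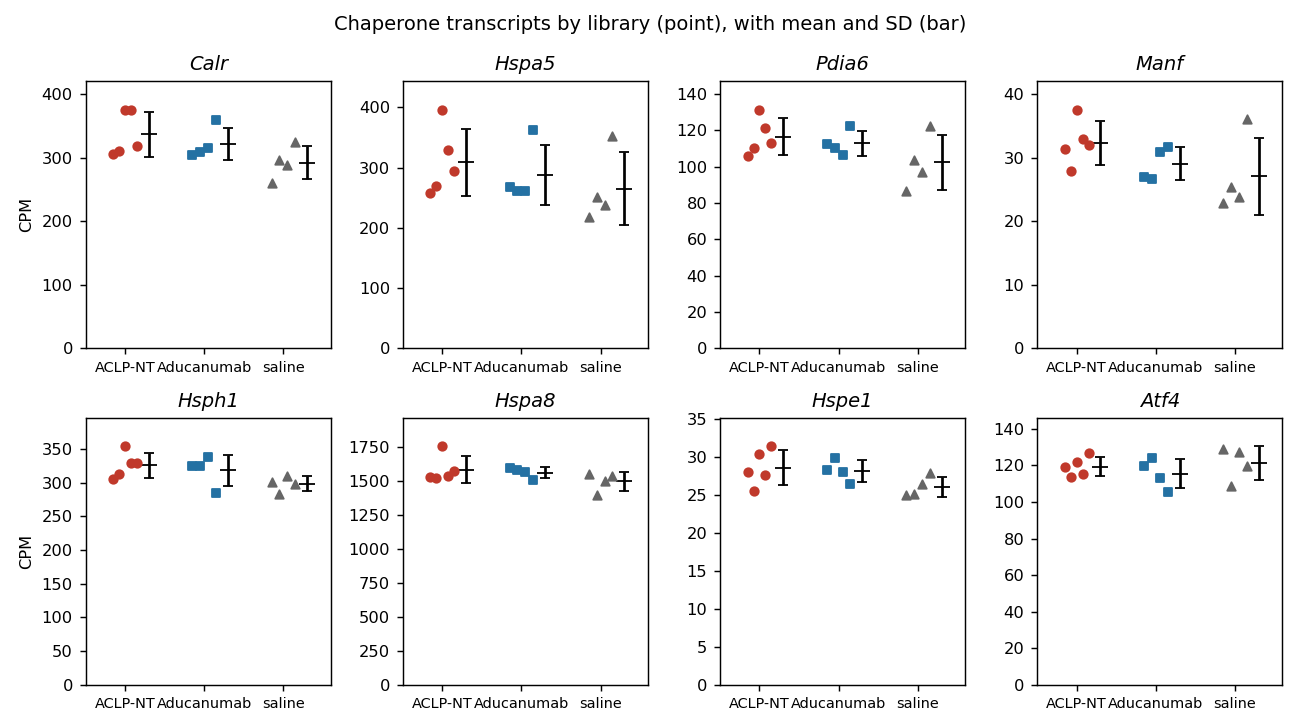
CPM of 8 members in each library (points), with the mean and SD of each group (bars), for ACLP-NT (n = 5), Aducanumab (n = 4) and saline (n = 4), on axes that start at 0. The groups overlap in every panel, and in the upper row saline 38 stands far above the other 3 saline libraries for Hspa5, Pdia6 and Manf.

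Libraries of a group differed from each other, and the ER members did so together. Hspa5 reached 396 CPM in ACLP-NT 49, against 218 CPM in saline 18, a ratio of 1.81. Its SD within groups on the log2 scale lay above that of 98.4% of the 1000 genes nearest to it in level. The same share was 98.1% for Dnajc3, the J-protein that restrains PERK and its relatives. Over the ER members it lay between 37.5% for Hyou1 and the value of Hspa5, with Canx at 45.1% and Dnajb9 at 52.3%. Over the 11 cytosolic Hsp70, Hsp90, J-protein and cochaperone members it lay between 29% for Hspa8 and 83.8% for Hspa4l, and Hspb1 was at 85.6%. The medians by role were 89.3% for the ER Hsp70, Hsp90 and cofactor genes, 89.2% for the lectins and isomerases and 57.8% for the cytosolic Hsp70 and Hsp110 genes. ACLP-NT 49 was the highest library for 9 of the 15 ER members and saline 18 the lowest for 9.

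The same libraries recurred at the top of the ER members. ACLP-NT 49, ACLP-NT 53, Aducanumab 58 and saline 38 were the highest 4 of 13 for 10 of 15 ER members, and at least 3 of them were among the highest 4 for 14 of 15. The exception was Dnajb9. For the 11 cytosolic members these counts were 0 and 1 (Bag3), and Hspb1 had all 4 at the top. These 4 libraries were singled out after their values were seen.

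Correlations of log2 CPM over the 13 libraries, taken as deviations from group means, describe the same division. The 105 pairs among the 15 ER members had a median r of 0.77, and 105 of 105 were positive. The 55 pairs among the 11 cytosolic members had a median r of 0.54, and 42 of 55 were positive, with r from -0.41 to 0.89. Over all 595 pairs of members the median r was 0.26. The 165 pairs between the ER and the cytosolic members had a median r of 0.097, with r from -0.56 to 0.79. Among the ER members Hyou1 had r = 0.69 with Hspa8 and 0.65 with Hsp90aa1. Hspb1 was counted in neither block, and its r was 0.77 with Hspa5 and -0.62 with Hsp90ab1. Genes whose deviations were most like those of Hspa5 were Pdia4 (r = 0.96), Hsp90b1 (0.95) and Pdia3 (0.95), and most like those of Hsph1 were Hspd1 (0.84), Hsp90aa1 (0.78) and Hsp90ab1 (0.78). These pairs share libraries and genes, so they are given as a description.

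**Figure D4:**
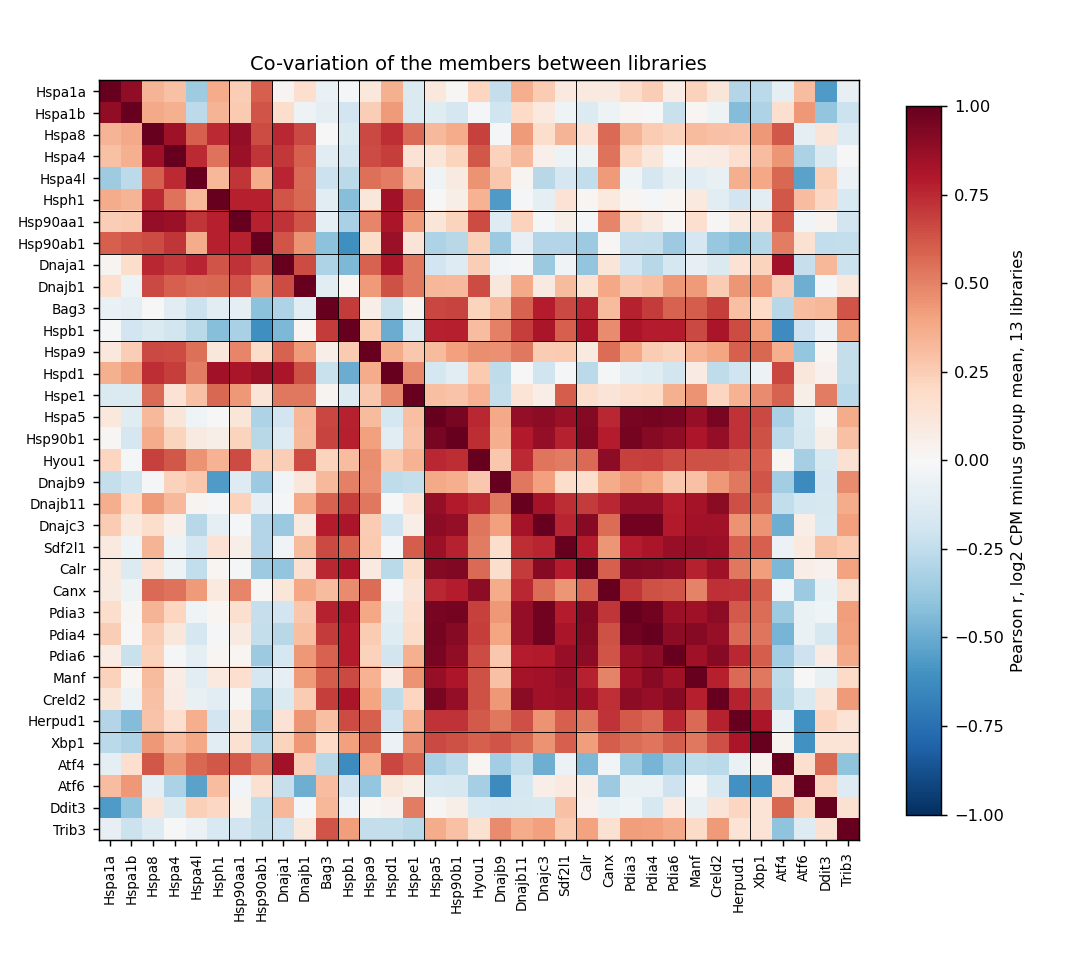
Pearson r between members over 13 libraries after subtraction of group means from log2 CPM, from -1 (blue) to 1 (red), with lines between roles. The ER members form a red block (median r 0.77), as do most cytosolic members (0.54). The field between the blocks has a median r of 0.097, with r from -0.56 to 0.79. Bag3 and Hspb1 are red with most ER members, and Hyou1 is red with several cytosolic members, such as Hspa8 (0.69). Hspb1 is not counted in these medians.

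Tested as single pairs, with 12 pairs in all and adjustment over them, Hspa5 followed Hsp90b1 with r = 0.96 (permutation p 1e-05, the smallest that 100000 resamples can give, adjusted 0.00012; rho = 0.88, permutation p 0.00019, adjusted 0.00114). Without ACLP-NT 49 and Aducanumab 58, the 2 libraries farthest from the median of Hspa5, r was 0.91. For Hspa5 and Manf r was 0.88 and rho 0.90 (permutation p 7e-05 and 8e-05, adjusted 0.00028 and 0.00096), and r was 0.89 without these 2 libraries. For Hspa5 and Sdf2l1 r was 0.86 and rho 0.77 (permutation p 0.00017 and 0.00232, adjusted 0.00051 and 0.00557), and r was 0.83 without them. For Hspa5 and Hyou1 r was 0.77 and rho 0.82 (permutation p 0.00129 and 0.00113, adjusted 0.00258 and 0.00452), and without them r was 0.66 (permutation p 0.0257, adjusted 0.0617). This pair did not pass without them, and its r was 0.64 to 0.87 with any 1 library left out. For these 4 pairs r was 0.95, 0.87, 0.86 and 0.75 as deviations from group means.

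In the cytosol, Hspa1a followed Hspa1b with r = 0.89 and rho = 0.80 (permutation p 7e-05 and 0.00156, adjusted 0.00028 and 0.00468), and r was 0.79 without Aducanumab 50 and 56. Much of the shared sequence of Hspa1a and Hspa1b is shared with each other, and how such reads were counted is not known. This r therefore cannot be read as co-variation of 2 separately measured genes. Hsph1 followed Hspa8 with r = 0.81 and rho = 0.75 (permutation p 0.00027 and 0.00432, adjusted 0.000648 and 0.00864) and Hsp90aa1 with r = 0.77 and rho = 0.71 (permutation p 0.00222 and 0.0083, adjusted 0.00381 and 0.0142). For Hsph1 and Dnajb1 r was 0.61 and rho 0.48 (permutation p 0.0283 and 0.103, adjusted 0.0377 and 0.123). Without ACLP-NT 49 and saline 19, the libraries farthest from the median of Hsph1, these 3 values of r were 0.64, 0.52 and 0.40, with adjusted permutation p of 0.069, 0.182 and 0.33. None of the 3 pairs passed without those 2 libraries, whose removal also narrows the range of Hsph1. With any 1 library left out r was 0.73 to 0.84 for Hspa8, 0.66 to 0.90 for Hsp90aa1 and 0.43 to 0.73 for Dnajb1. Hspa5 and Hsph1, taken as 1 gene of either block, had r = 0.22 and rho = 0.31 (permutation p 0.475 and 0.303, adjusted 0.519 and 0.331), and r was 0.19 without ACLP-NT 49 and Aducanumab 58. Hspd1 and Hspe1 had r = 0.53 and rho = 0.55 (permutation p 0.0605 and 0.0552, adjusted 0.0727 and 0.0736), and r was 0.37 without Aducanumab 58 and saline 19.

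Partners outside the set were tested for 2 members. Hsph1 ran against Cirbp, a cold-inducible RNA-binding protein, with r = -0.73 and rho = -0.70 (permutation p 0.00387 and 0.0101, adjusted 0.0058 and 0.0152). Without ACLP-NT 49 and saline 19 r was -0.35 (permutation p 0.291, adjusted 0.349), so the pair did not pass without them. With any 1 library left out r was -0.80 to -0.59. Hspa1a and Fos, an immediate early gene, had r = -0.085 and rho = -0.14 (permutation p 0.784 and 0.658, adjusted 0.784 and 0.658), and r was 0.0099 without Aducanumab 50 and 56.

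Choroid plexus transcripts were high in several of the libraries at the top of the ER members. Ttr, which encodes transthyretin and is the most abundant marker of that epithelium, had 1949, 1564, 3360.2, 4499.9 and 48.3 CPM in ACLP-NT, 616, 48.6, 4106 and 4556 CPM in Aducanumab, and 21.0, 485, 76.2 and 4482 CPM in saline. The highest libraries, Aducanumab 58, ACLP-NT 53 and saline 38, were 3 of the 4 that recurred at the top of the ER members, and ACLP-NT 49 was at 3360.2 CPM. Aducanumab 56 departed from this, with Ttr at 4106 CPM and Hspa5 at 262 CPM, near the lower libraries of its group. ACLP-NT 55 departed in the other direction, with Ttr at 48.3 CPM and Hspa5 at 294 CPM, the fifth highest value. ACLP-NT 17 and 27, with Ttr at 1949 and 1564 CPM, had the lowest Hspa5 of their group, 257 and 269 CPM. Neuron markers were low in the 4 libraries at the top of the ER members. They summed to 3876 and 3675 CPM in ACLP-NT 49 and 53, 3379 CPM in Aducanumab 58 and 3700 CPM in saline 38. All other libraries had 4040 CPM or more, with Aducanumab 56 at 4223 CPM. Meningeal fibroblast markers summed to 193 CPM in Aducanumab 58 and 142 CPM in saline 38. In ACLP-NT 49 and 53 they summed to 93.0 and 98.1 CPM, and in Aducanumab 56 to 43.4 CPM. The part of both lists in the ER values was not tested. The 10 choroid plexus markers had a median log2 fold change of 0.78 in ACLP-NT against saline and 0.80 in Aducanumab against saline, all 10 above 0 in both, and 0 passed.

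In a fit with the mean choroid plexus marker level as a term beside the groups, 4 members passed for that term, 3 of the 15 ER members and Hspb1, all higher where it was higher (3.05% of genes passed in that direction and 0.068% in the other). Per log2 unit of choroid plexus level, Dnajc3 was higher by 0.096 (SE 0.0179, edgeR adjusted p 0.00672) and Pdia4 by 0.092 (SE 0.0188, edgeR adjusted p 0.0129). Hspb1 was higher by 0.14 (SE 0.0320, edgeR adjusted p 0.0270) and Pdia3 by 0.057 (SE 0.0144, edgeR adjusted p 0.0486). For Hspa5 the value was 0.078 (SE 0.0239), for Hsph1 -0.0067 (SE 0.0116) and for Atf4 -0.028 (SE 0.00995), with edgeR adjusted p of 0.127, 0.879 and 0.213. The ER members Hyou1, Canx, Dnajb9 and Herpud1 had values of 0.010, 0.011, 0.017 and 0.017, with edgeR adjusted p of 0.753, 0.749, 0.696 and 0.767. Reading this term as a result was chosen after seeing the data. The count was 0 without saline 38, and 2 (Dnajc3 and Pdia4) without ACLP-NT 53, Aducanumab 58, saline 18 or saline 32. Pdia3 also lost its call without a filter, at a mean FPKM of at least 5 and with RLE scaling. Without Aducanumab 56 the count was 6, with Creld2 and Hspa5 added, the edgeR adjusted p of Hspa5 being 0.0485. With the term in the fit, 0 members passed in any comparison of treatments, and 24 of 35 were above 0 in ACLP-NT against saline and 23 of 35 in Aducanumab against saline.

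**Figure D5:**
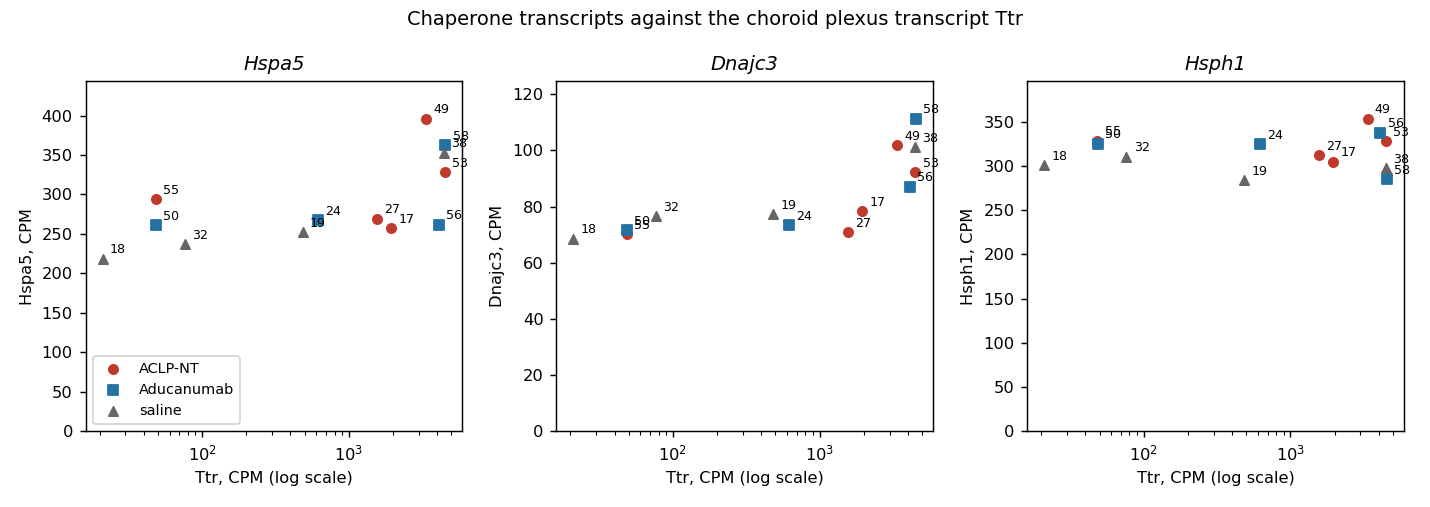
CPM of Hspa5, Dnajc3 and Hsph1 against CPM of Ttr on a log axis, 1 point per library, numbered as in the labels. The 3 highest values of Dnajc3 lie at Ttr levels of 3360 to 4556 CPM, whereas Hsph1 shows no such order, and Aducanumab 56 lies low for Hspa5 at a Ttr level of 4106 CPM.

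Saline 38 had the highest Hspa5, Manf and Calr levels of its group. Without it, 9 members had an unadjusted p below 0.05 in ACLP-NT against saline by edgeR and 4 in Aducanumab against saline, all higher. The shares of genes in that fit, in either direction, were 6.86% and 6.01%. The smallest adjusted p of a member by edgeR were 0.706 and 0.766, and 0 passed. Without ACLP-NT 49, ACLP-NT 53 or saline 18, 0 members had an unadjusted p below 0.05 in ACLP-NT against saline by edgeR (6.76%, 4.37% and 5.11% of genes).

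Other genes of these pathways, taken from fixed lists, also had 0 calls in each direction. The list of Hsf1, further cochaperones and chaperonin subunits had 24 of 34 above 0 in ACLP-NT against saline (median 0.033) and 21 of 34 in Aducanumab against saline (median 0.022). Hsf1 itself was at -0.14 (SE 0.0631) in Aducanumab against saline, and Hspb6, a small heat shock protein, at -0.36 (SE 0.164) in ACLP-NT against saline. The sensors and signalling genes of the unfolded protein response had 13 of 20 above 0 in ACLP-NT (median 0.063) and 10 of 20 in Aducanumab (median -0.0012), each against saline. Translocation and ER degradation factors had 15 of 29 above 0 in ACLP-NT (median 0.0033) and 14 of 29 in Aducanumab (median -0.0016), each against saline. Among these Edem1, which directs misfolded glycoproteins to degradation, was at -0.23 (SE 0.0741) in ACLP-NT and -0.19 (SE 0.0784) in Aducanumab, each against saline. ATF4 target genes had 5 of 14 above 0 in ACLP-NT (median -0.031) and 8 of 14 in Aducanumab (median 0.011), each against saline. Within that list Gpt2, a mitochondrial transaminase, was at 0.20 (SE 0.0409) and 0.20 (SE 0.0430) in these comparisons, and Ddit4, an inhibitor of mTORC1 signalling, at 0.33 (SE 0.0866) and 0.23 (SE 0.0909). Mitochondrial folding genes had 5 of 8 above 0 in ACLP-NT (median 0.010) and 3 of 8 in Aducanumab (median -0.0046), each against saline.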

How the data were processed

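Bulk poly(A) RNA-seq of 13 hippocampal libraries was used. The authors deposited 1 table with raw counts, whole numbers per gene without normalization, and values named FPKM per the file headers, scaled by the authors. Per the submitters' processing notes, cutadapt 1.9, HISAT2 2.0.4, StringTie 1.3.4d and edgeR were used. Not given in the sources used here are the counter, strandedness, annotation release and genome build. The table's coordinates were not mixed with those of GRCm38.p6, from which RefSeq promoters were read.

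Counts were filtered with filterByExpr, TMM-scaled and tested with edgeR 4.0.16 (glmQLFit, glmQLFTest, two-sided, R 4.3.3) with the 3 groups in 1 fit and Benjamini-Hochberg adjustment over 22065 genes at a threshold of 0.05. The coefficient of biological variation common to all genes was 0.226. The SE is the absolute log2 fold change over the square root of F, and intervals are at 95%. Libraries of a group differed beyond counting error (smallest chi-square per degree of freedom 14.0), so each counts as 1 sample. Correlations used log2 CPM (prior count 2), 100000 two-sided permutations (numpy 2.4.6) and 12 pairs. The steps were tested on simulated data.

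Alternatives were to test unfiltered genes or those of a mean FPKM of 5 and over, RLE and upper quartile scaling, DESeq2 1.42.0, limma 3.58.1 on log2(FPKM + 1), a robust fit, only the 2 groups compared, a choroid plexus covariate, and each library left out. Named with values in every library are the 5 members with the smallest p in each comparison and 18 fixed ones, and up to 2 genes per other list by p. Members and lists were chosen with earlier results of these data known. The labels number the libraries and do not state separate animals outright.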

Additional observations from a re-analysis of the deposited data

Results flagged for a closer look

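Of 105 groups of libraries (35 members in 3 groups), 9 had a highest or lowest library whose gap to its nearest neighbour was large against the group's range, where about 1 in 20 is flagged by chance. The members are correlated, so several flags share a library.

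Among the ER members, Aducanumab 58 stood above its group for Hspa5 at 362 CPM, the next library being at 267 CPM, and for Sdf2l1 at 13.4 CPM, next 10.8 CPM. Saline 38 stood above its group for Dnajb11 at 47.9 CPM, next 38.9 CPM, and for Pdia3 at 248 CPM, next 199 CPM. ACLP-NT 49 stood above its group for Dnajb11 at 49.8 CPM, next 44.1 CPM, for Herpud1 at 50.6 CPM, next 46.1 CPM, and for the cytosolic Hspa8 at 1752 CPM, next 1571 CPM. These 3 libraries had Ttr at 4556, 4482 and 3360.2 CPM. The part of choroid plexus in these single values was not tested.

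The remaining flags were Hspa4l, an Hsp110 gene, in Aducanumab 50 at 191 CPM, next 157 CPM, and Hspa1a in saline 19 at 18.8 CPM, below the other saline libraries, the nearest at 19.9 CPM.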

How the results depend on the processing

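The count of members called stayed at 0 in all 3 comparisons under every alternative run, and so did the side of the threshold of each named gene. Of 1208 recomputed log2 fold changes of named genes (55 gene and comparison pairs), 44 changed sign, in 16 pairs, and the cause was not tested. A further 186, in 51 pairs, kept their sign and moved by over 1.5 times, 161 of them with a library left out and 20 with the choroid plexus covariate. The 4 pairs without such a move were Calr and Hsph1 in ACLP-NT against saline and Hspe1 in both comparisons with saline. In ACLP-NT against saline, Dnajb9 was -0.00029 without a filter, -0.0043 at a mean FPKM of at least 5, -0.00093 with RLE scaling, -0.00081 in DESeq2, -0.0023 in limma and -0.027 with the choroid plexus covariate. With that covariate Hspa1a was -0.00052, Hspa1b -0.016, Hspb1 -0.12 and Atf4 0.026. In Aducanumab against saline, Hyou1 was -0.00076 without a filter and, with the covariate, Hyou1 was -0.0093, Sdf2l1 -0.0098 and Trib3 -0.0015.

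With each library left out in turn, ranges that crossed 0 in ACLP-NT against saline were -0.022 to 0.034 (Dnajb9), -0.037 to 0.055 (Hspa1b), -0.22 to 0.48 (Trib3), -0.042 to 0.33 (Hspb1), -0.031 to 0.37 (Sdf2l1), -0.069 to 0.010 (Atf4), -0.096 to 0.037 (Herpud1) and -0.085 to 0.00088 (Xbp1). In Aducanumab against saline they were -0.030 to 0.086 (Atf6), -0.021 to 0.032 (Hyou1), -0.0095 to 0.29 (Hspa5), -0.087 to 0.31 (Sdf2l1), -0.18 to 0.46 (Trib3), -0.0065 to 0.068 (Hsp90aa1) and -0.0066 to 0.13 (Herpud1). Members called for the choroid plexus term ran from 0 to 6. As deviations from group means r was -0.0036 for Hspa5 and Hsph1 and 0.17 for Hspa1a and Fos, which was 0.0099 without the 2 farthest libraries. No paired analysis was possible because the 3 groups have no library number in common. With 4 or 5 libraries a group, the intervals given bound what could be seen, and Trib3 has counts down to 15.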

Other observations

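Genes outside the set that respond to stress hormones, temperature and activity give context for the chaperones. Of 8 glucocorticoid target genes, 8 were above 0 in ACLP-NT against saline (49.4% of all genes), with a median log2 fold change of 0.23. In Aducanumab against saline 8 were above 0 (51.3% of all genes), with a median of 0.20. The comparisons share the saline libraries, and 0 passed in edgeR. Sgk1, a kinase induced by glucocorticoids, was at 0.70 (SE 0.186) and 0.66 (SE 0.195) in these comparisons. By edgeR, 7 and 4 of the 8 had an unadjusted p below 0.05 (5.88% and 4.68% of all genes, in either direction). The list was chosen with earlier results of these data known. Of the 2 cold-inducible RNA-binding protein genes, 0 were above 0 in either comparison, with Cirbp at -0.15 (SE 0.0587) and -0.050 (SE 0.0620). Rbm3 was at -0.064 (SE 0.0669) and -0.10 (SE 0.0706).

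Of 9 immediate early genes, 5 were above 0 in ACLP-NT against saline and 3 in Aducanumab against saline, with Fos at -0.29 (SE 0.101) and -0.34 (SE 0.107). Of 6 microglial markers 0 were above 0 in either comparison, and their summed level was 628 to 906 CPM in ACLP-NT, 746 to 912 CPM in Aducanumab and 887 to 1092 CPM in saline. Neocortex markers, which can differ with dissection, had 0 of 6 above 0 in either comparison, with summed levels of 97.0 to 137 CPM in ACLP-NT, 85.8 to 113 CPM in Aducanumab and 112 to 194 CPM in saline. Their part in the values of the chaperones was not tested.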
